A study of Mus musculus with 4 samples.

Results

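The genes of MHC class II antigen presentation were followed in myeloid-derived suppressor cells (MDSCs) from the lungs of mice with an induced pre-metastatic niche. The 10 genes, H2-Aa, H2-Ab1, H2-Eb1, Cd74, H2-DMa, H2-DMb1, H2-DMb2, H2-Oa, H2-Ob and Ciita, were taken by their symbols from the 54532 genes of the count table. All 10 were found, and all 10 were among the 16369 genes tested, those that reached 10 counts in 1 library or more. The data were 4 RNA-seq libraries, 1 from each group of C57BL/6 mice aged 6 to 8 weeks. All 4 groups were given B16F10 melanoma conditioned medium (MCM, 300 µL a mouse) into the peritoneum daily for 10 days, and B16F10 cells into the tail vein on day 7. The control group (Ctrl) was labelled as untreated model mice. The other groups received a peptide under the skin from day 3, each at a labelled dose of 40 µM/kg/day. TP5 was thymopentin, a free immunomodulatory pentapeptide. FR17 carried TP5 on a self-assembling peptide through a linker cut by the protease MMP2, and sFD17 was the same assembling peptide with the pentapeptide scrambled. Lungs were taken on day 10, and cells positive for CD11b and Ly6G were sorted from 10 to 12 mice pooled for each library. There was no healthy group, and no antibody to a class II molecule was used in the sort. Each group had 1 library, so no difference between groups had a replicate check.

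MHC class II molecules are pairs of an α and a β chain that show peptides from endosomes to CD4+ T cells. H2-Aa and H2-Ab1 encode the α and β chains of I-A, and H2-Eb1 encodes the β chain of I-E, whose α chain gene is not functional in C57BL/6 mice. The invariant chain, Cd74, fills the groove of new class II molecules and takes them to endosomes, where proteases cut it to a short remnant. H2-DM, made of H2-DMa with H2-DMb1 or H2-DMb2, exchanges that remnant for antigenic peptides. H2-O, made of H2-Oa and H2-Ob, inhibits H2-DM and is best known in B cells. Ciita is the coactivator that switches these genes on. It binds no DNA itself but rides on RFX, NF-Y and CREB factors that sit on promoter elements named X1, X2 and Y, the last being an inverted CCAAT box. Dendritic cells, macrophages and B cells are the usual class II cells, and neutrophils carry little at rest.

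The 8 genes whose names begin with H2 lay on chromosome 17, and Ciita on chromosome 16 (chr16:10480059-10528418, plus strand). The coordinates are those of the count table, whose build was given as GRCm38.p6. In order along chromosome 17 they were H2-Oa (chr17:34092340-34095234), H2-DMa (chr17:34135182-34139101), H2-DMb2 (chr17:34143307-34151553), H2-DMb1 (chr17:34153072-34160230), H2-Ob (chr17:34238903-34245907), H2-Ab1 (chr17:34263209-34269418), H2-Aa (chr17:34282744-34287827) and H2-Eb1 (chr17:34305877-34316199). H2-Aa was on the minus strand and the others on the plus strand. Promoter windows of 300 bases, 250 before and 50 after a start site, were held by the RefSeq table of the same build for 7 of the 10 genes. H2-Ab1, Cd74 and Ciita had no window there.

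The promoter stretches are shown because the X and Y elements are where the factors that carry Ciita are known to bind. In 6 promoters the letters TGATTGG, which hold the inverted CCAAT box, lay 45 to 92 bases before the RefSeq start site, with an AAC, letters common to X1 elements, 26 to 29 bases further upstream. Each stretch below is 77 bases of the coding strand, 5′ to 3′, with the AAC and the TGATTGG in capitals.
H2-Oa, chr17:34092284-34092360, plus strand: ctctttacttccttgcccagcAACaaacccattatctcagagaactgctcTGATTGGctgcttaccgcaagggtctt
H2-DMb2, chr17:34145107-34145183, plus strand: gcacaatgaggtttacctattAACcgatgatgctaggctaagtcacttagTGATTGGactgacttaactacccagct
H2-DMb1, chr17:34153078-34153154, plus strand: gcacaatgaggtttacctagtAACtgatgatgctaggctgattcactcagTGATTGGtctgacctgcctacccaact
H2-Ob, chr17:34238796-34238872, plus strand: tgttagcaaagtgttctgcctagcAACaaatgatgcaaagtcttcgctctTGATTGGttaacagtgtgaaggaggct
H2-Aa, chr17:34287847-34287923, minus strand: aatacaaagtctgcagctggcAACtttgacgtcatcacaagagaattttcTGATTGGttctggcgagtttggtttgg
H2-Eb1, chr17:34305756-34305832, plus strand: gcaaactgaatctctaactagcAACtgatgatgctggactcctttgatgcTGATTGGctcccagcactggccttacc

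The H2-DMb1 and H2-DMb2 stretches had the same base at 67 of 77 positions. The spacing of AAC and TGATTGG was chosen after these windows had been read, and the same pair at 26 to 29 bases, on either strand, stood in 0.441% of the 32843 windows of other genes. The letters TGATTGG alone stood in 7.8% of them. Of the searches listed with the design, the 10-letter X1 core was matched in 4 of the 7 genes with a window (H2-Oa, H2-DMb1, H2-Ob and H2-Eb1) and in 2.66% of other windows. In H2-DMb1 and H2-Eb1 this match lay at the marked AAC, and in H2-Oa and H2-Ob it was not within the printed stretch. The X2 core TGACG was matched in H2-Aa alone, against 20.8% of other windows. The X1 core followed on the same strand by ATTGG at 18 to 45 bases was matched in H2-DMb1 and H2-Eb1 and in 0.0365% of other windows. CCAAT, on either strand, was matched in all 7 genes and in 37.4% of other windows, and overlaps the TGATTGG search. For H2-DMa, the 2 windows ended at 34122881 and 34125567 on chromosome 17, both upstream of the gene start in the count table, and held no TGATTGG. The H2-DMb2 and H2-DMb1 stretches began downstream of the gene starts in the count table (34143307 and 34153072), so they lie before the RefSeq start sites but inside the genes as counted.

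Total counts ran from 15543071 in sFD17 to 19638228 in FR17, and TMM scaling factors from 0.849 in sFD17 to 1.17 in FR17. The sFD17 library therefore had the lowest factor and the FR17 library the highest, and a scaling by library size alone moved the median of all genes against control by -0.21 in sFD17 and by 0.24 in FR17 on the log2 scale. Levels are given as CPM, counts scaled to a common library total, after TMM scaling. The sorted phenotype was present in every library, with Ly6g at 73.1 to 111 CPM and the 10 neutrophil markers summing to 24060 to 39950 CPM. Markers of macrophages, dendritic cells, B cells, T cells, NK cells, endothelium and alveolar type 2 cells were present too, with none at 0 counts in any library. Since the libraries are bulk RNA, fewer cells of a type and less RNA per cell cannot be told apart in any value below.

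In the control library the class II genes took 200780 counts, 1.17% of the library (Wilson 95% interval 1.17 to 1.18, counting error only). They took 1.55% of the TP5 library, 0.738% of the sFD17 library and 1.65% of the FR17 library. Cd74 alone ranked 13th of all genes by count in Ctrl, 6th in TP5, 37th in sFD17 and 3rd in FR17. Per gene length, as RPKM (scaled reads divided by gene length in kilobases) in Ctrl, the order was Cd74 at 3308, H2-Eb1 at 1904, H2-Ab1 at 1435, H2-Aa at 1132, H2-DMa at 113, H2-DMb1 at 100.3, H2-DMb2 at 21.5, H2-Ob at 11.2, Ciita at 8.51 and H2-Oa at 7.75. The presented chains and the invariant chain thus stood above the genes of H2-DM, and those above the genes of H2-O and Ciita. The spread over samples of 1 group could not be measured. H2-DMa and H2-DMb1 were neighbours in this order by 3122 and 2515 counts, and Ciita and H2-Oa by 1371 and 172 counts over very different gene lengths.

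**Figure D1:**
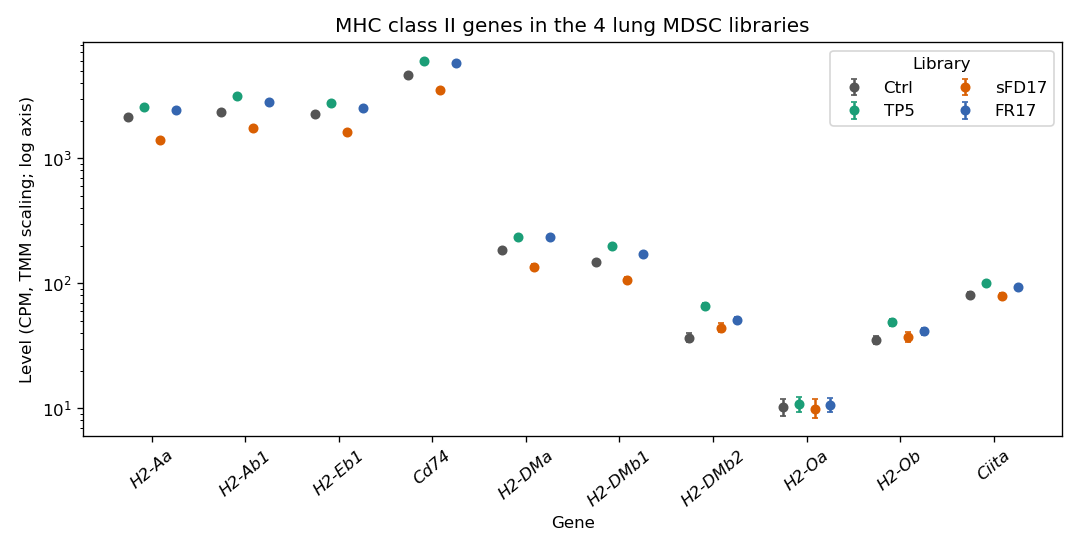
Level of each class II gene in the 4 libraries, in CPM after TMM scaling on a log axis, with Wilson 95% intervals that cover counting error only. Cd74 was highest in every library, at 3520 to 6026 CPM, and H2-Oa lowest, at 9.93 to 10.8 CPM.

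The genes of the presented chains were higher than control in the TP5 and FR17 libraries and lower in the sFD17 library. H2-Aa stood at 2121 CPM in Ctrl, 2582 in TP5, 1395 in sFD17 and 2432 in FR17. H2-Ab1 stood at 2349, 3115, 1741 and 2791 CPM in the same order. H2-Eb1 stood at 2255, 2759, 1621 and 2542 CPM. For all 3 genes TP5 was the highest library and sFD17 the lowest, but by library size alone FR17 was above TP5. Against control, H2-Ab1 was 1.33-fold in TP5 (95% counting interval 1.31 to 1.34), 0.741-fold in sFD17 (0.729 to 0.754) and 1.19-fold in FR17 (1.17 to 1.20). H2-Aa was furthest below control in sFD17 of the 10 genes, at 0.658-fold (0.646 to 0.670). H2-Ea-ps, the disabled partner gene of H2-Eb1, had 2, 4, 5 and 2 counts in Ctrl, TP5, sFD17 and FR17, and H2-Eb2, a further β chain gene of the region, had 44, 73, 44 and 78.

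Cd74, the invariant chain, which lies on chromosome 18, followed the chains it serves. It stood at 4664 CPM in Ctrl, 6026 in TP5, 3520 in sFD17 and 5728 in FR17. That is 1.29-fold of control in TP5 (1.28 to 1.30), 0.755-fold in sFD17 (0.746 to 0.763) and 1.23-fold in FR17 (1.22 to 1.24). These intervals are narrow because they rest on 46460 to 131494 counts a library, and they hold no variation between mice or preparations.

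Of the genes of H2-DM, the peptide exchanger, H2-DMa and H2-DMb1 had the same order of libraries as the presented chains under TMM and DESeq2's size factors, and H2-DMb2 did not. By library size alone H2-DMa had FR17 above TP5 as those chains did, while H2-DMb1 was at 0.991-fold of TP5 in FR17 (0.947 to 1.04). H2-DMa stood at 184.8 CPM in Ctrl, 234.3 in TP5, 134.9 in sFD17 and 232.5 in FR17. H2-DMb1 stood at 148.9, 198.8, 106.2 and 172.2 CPM. H2-DMb2 stood at 36.8, 65.8, 44.0 and 51.2 CPM, so that control and not sFD17 was its lowest library. H2-DMb2 was 1.79-fold of control in TP5 (1.62 to 1.97), the furthest from control of any of the genes in any peptide library, and 1.20-fold in sFD17 (1.07 to 1.34), which was 1.03-fold (0.918 to 1.16) by library size alone. H2-DMb1 and H2-DMb2 are near copies: 22.7% and 24.8% of the 50-base words of their transcripts were shared with the other, and how the counting treated such reads was not stated. Their summed level, which does not depend on that split, was 1.42-fold of control in TP5, 0.809-fold in sFD17 and 1.20-fold in FR17.

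The genes of H2-O, the inhibitor of H2-DM, were close to control in sFD17, and H2-Ob was higher in TP5 and FR17. H2-Oa had 172 counts in Ctrl, 189 in TP5, 131 in sFD17 and 243 in FR17, which is 10.2, 10.8, 9.93 and 10.6 CPM. Under TMM the intervals of H2-Oa against control all included 1, running in sFD17 from 0.771 to 1.23, so a difference was not detectable at this depth, while by library size alone H2-Oa was 1.23-fold of control in FR17 (1.01 to 1.51). H2-Ob stood at 35.3 CPM in Ctrl, 48.6 in TP5, 37.2 in sFD17 and 41.4 in FR17. It was 1.38-fold of control in TP5 (1.24 to 1.53), while its interval in sFD17 included 1 (0.934 to 1.19), also by library size alone, which turned it to 0.908-fold (0.804 to 1.03).

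Ciita, the coactivator, stood at 81.2 CPM in Ctrl, 99.7 in TP5, 79.4 in sFD17 and 93.5 in FR17. It was 1.23-fold of control in TP5 (1.14 to 1.32) and 1.15-fold in FR17 (1.08 to 1.23). In sFD17 it was 0.978-fold (0.902 to 1.06), which DESeq2's size factors turned to just above control and library size alone to 0.843-fold (0.777 to 0.914). Ciita was therefore level with control in the library in which H2-Aa, H2-Ab1, H2-Eb1, Cd74, H2-DMa and H2-DMb1 were below it, under TMM and DESeq2's scaling.

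Under the fixed rule of a 2-fold difference from control, 0 of the 10 genes passed in any peptide library. Over all 16369 genes tested, 8.18% were past 2-fold in TP5, 11.8% in the sFD17 library and 7.5% in FR17. edgeR's exact test on the 2 libraries, at an unadjusted p under 0.05, also called 0 of the 10 in each comparison, against 1.98% of all genes in TP5, 4.83% in sFD17 and 1.88% in FR17. DESeq2's Wald test called 0 as well. This test compares libraries and not conditions, with the spread taken over the 4 libraries as 1 group. The lowest p of edgeR's exact test was 0.0698 for H2-DMb2 in TP5, and the lowest in sFD17 and FR17 were 0.272 for H2-Aa and 0.301 for H2-DMb2. The class II genes did not reach either call in any library.

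By direction, 10 of 10 were higher than control in TP5, with log2 differences of 0.08 to 0.84 and a median of 0.36, where 50.1% of all genes were higher and their median was 0.00. In FR17, 10 of 10 were higher, at 0.06 to 0.47 with a median of 0.22, beside 52.3% of all genes and a median of 0.02. In sFD17, 8 of 10 were lower, from -0.60 for H2-Aa to 0.26 for H2-DMb2 with a median of -0.42, beside 52.0% of all genes and a median of -0.03. With DESeq2's size factors 6 of 10 were lower in sFD17, Ciita and H2-Oa then standing just above control. Of all genes, 51.3% were then higher. By library size alone 9 of 10 were lower, H2-Ob having moved below control, and 31.9% of all genes were higher. In TP5 and FR17, 55.5% and 71.6% of all genes were higher by library size alone. These shares also stand beside the counts by direction in the lists below. The 3 comparisons share the control library, and so are not independent of each other.

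**Figure D2:**
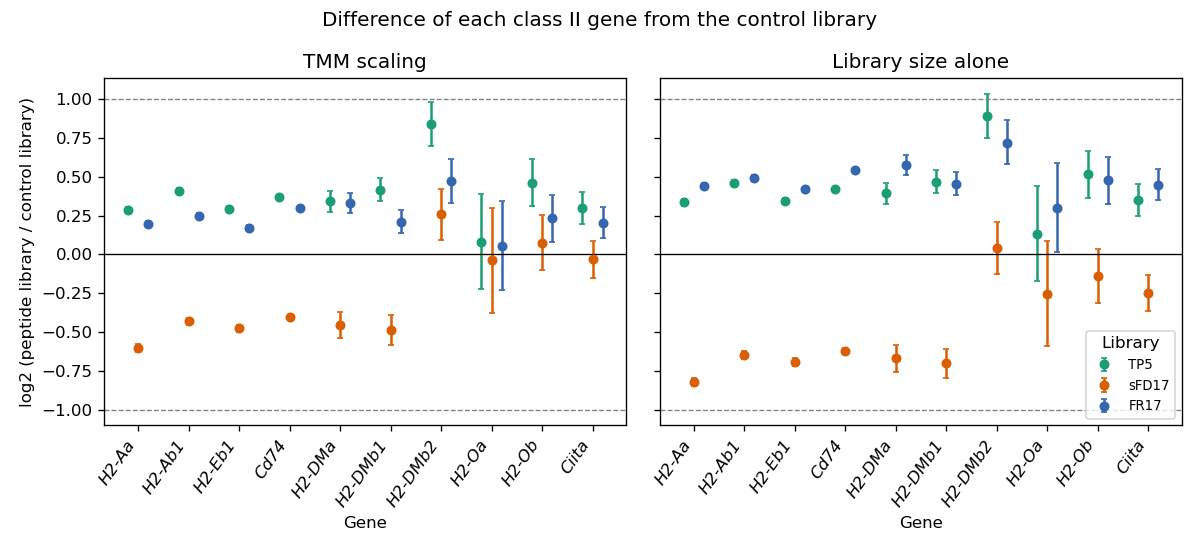
Each class II gene in the peptide libraries against the control library, as the log2 ratio of scaled counts, with TMM scaling on the left and library size alone on the right; bars are exact binomial 95% intervals of the counts and dashed lines mark 2-fold. H2-DMb2 in TP5 was furthest from control, and H2-DMb2, H2-Oa, H2-Ob and Ciita lay above the other 6 genes in the sFD17 library under both scalings.

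Comparisons between the peptides, which were given at the same dose and over the same days, also rest on 1 library for each group. FR17, the assembling form, against TP5, the free form, gave 0 of 10 past 2-fold beside 9.92% of all genes. The quartiles of the log2 difference over all genes were -0.30 and 0.30. For the 10 genes the log2 differences were -0.36 to -0.01, with a median of -0.11. Their sign depended on the scaling: 10 of 10 were lower in FR17 under TMM and under DESeq2's size factors, and 7 of 10 were higher by library size alone, where 65.4% of all genes were. The ratio of H2-DMa was 0.993 with a counting interval of 0.953 to 1.03, or 1.14 (1.09 to 1.18) by library size alone, and that of H2-DMb2, the furthest apart, 0.778 (0.717 to 0.845).

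FR17 and sFD17 differ only in the order of the pentapeptide, and all 10 genes were higher in FR17 under each of the 3 scalings. Of all genes, 53.6% were higher under TMM, 51.4% with DESeq2's size factors and 73.45% by library size alone. The log2 differences were 0.09 for H2-Oa to 0.80 for H2-Aa, with a median of 0.66 beside 0.07 over all genes. None passed 2-fold under TMM, beside 22.1% of all genes, and 6 of 10 did by library size alone, where 30.5% of all genes did: H2-Aa, H2-Ab1, H2-Eb1, Cd74, H2-DMa and H2-DMb1. Library size alone also put the median of all genes at 0.52 in this comparison. H2-Ab1 was 1.60-fold higher in FR17 than in sFD17 (1.58 to 1.63), Cd74 1.63-fold (1.61 to 1.65) and H2-DMa 1.72-fold (1.63 to 1.82). The ratio was 1.18 for Ciita (1.09 to 1.27), 1.11 for H2-Ob (0.998 to 1.24) and 1.07 for H2-Oa (0.859 to 1.33). By library size alone the intervals of H2-Ob and H2-Oa no longer included 1, at 1.53 (1.37 to 1.71) and 1.47 (1.18 to 1.83). sFD17 against TP5 was the mirror of this, with 10 of 10 lower under each scaling, a median of -0.77, and 0 of 10 past 2-fold beside 12.4% of all genes, or 6 of 10 beside 14.4% by library size alone, which put the median of all genes at -0.30. The lowest p of edgeR's exact test over the 3 peptide pairs was 0.0753, for H2-DMb1 in sFD17 against TP5.

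The ratio of 2 genes within a library does not depend on scaling or depth, and here the genes fell into separate patterns. Relative to H2-Ab1, and set to 1 in control, Cd74 was at 0.974 in TP5, 1.02 in sFD17 and 1.03 in FR17. H2-DMa and H2-DMb1 were within 0.956 to 1.06 in every peptide library, H2-Eb1 within 0.923 to 0.970, and H2-Aa within 0.887 to 0.965. In sFD17 the other 4 genes stood higher relative to H2-Ab1, H2-DMb2 at 1.61 (1.44 to 1.81), H2-Ob at 1.42 (1.26 to 1.60), Ciita at 1.32 (1.22 to 1.43) and H2-Oa at 1.31 (1.05 to 1.65). In FR17 the same 4 ratios were 1.17, 0.988, 0.970 and 0.875, and in TP5 1.35, 1.04, 0.926 and 0.798. H2-DMb2 relative to H2-Ab1 was thus above control in all 3 peptide libraries, with intervals of 1.22 to 1.49 in TP5 and 1.06 to 1.29 in FR17. Of these 4 genes, H2-Oa (0.649 to 0.982) and Ciita (0.862 to 0.9955) were below control in TP5.

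In direct counts, there were 26.1 H2-Aa reads for each Ciita read in Ctrl, 25.9 in TP5 and 26.0 in FR17, against 17.6 in sFD17. The sFD17 ratio was 0.672 of that in control (0.619 to 0.730). H2-Ob to Ciita was 43.5, 48.8, 46.9 and 44.3 reads per 100 in Ctrl, TP5, sFD17 and FR17, and every peptide interval relative to control included 1. H2-DMb2 to Ciita was above control in each, at 1.45-fold in TP5 (1.29 to 1.64), 1.22-fold in sFD17 (1.06 to 1.40) and 1.21-fold in FR17 (1.07 to 1.36). H2-DMb2 to H2-DMb1 was 24.7 reads per 100 in Ctrl, 33.1 in TP5, 41.4 in sFD17 and 29.7 in FR17. This ratio was above control in each peptide library, by 1.34-fold (1.20 to 1.49), 1.68-fold (1.47 to 1.91) and 1.20-fold (1.08 to 1.34), with the limit on the split of reads between these copies given above.

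**Figure D3:**
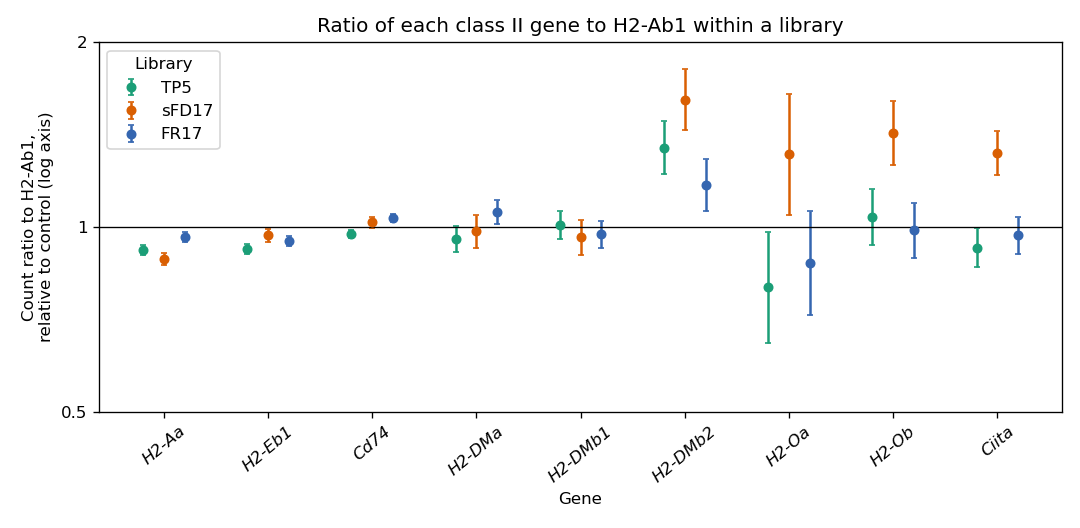
Count ratio of each class II gene to H2-Ab1 in the same library, relative to that ratio in control, on a log axis; bars are 95% intervals for counting error. H2-DMb2, H2-Oa, H2-Ob and Ciita stood at 1.31 to 1.61 in sFD17, where H2-Aa, H2-Eb1, Cd74, H2-DMa and H2-DMb1 stood at 0.887 to 1.02.

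Some reads of these genes could belong to neighbours, since use of strand in the counting was not stated. By the gene spans of the count table, 3 of the 10 genes overlapped another gene. In the GENCODE M21 annotation, which has Ciita and H2-Oa at the same coordinates as the count table, Ciita shared 329 exon bases with Dexi on the opposite strand, which had 200 counts in Ctrl, and H2-Oa shared 321 with BC051537, which had 2. These lengths are 3.45% of the exon bases of Ciita and 22.8% of those of H2-Oa. Mir5107, a microRNA gene, lay inside the span of Cd74 on the same strand and had 356, 232, 108 and 506 counts in Ctrl, TP5, sFD17 and FR17. H2-DMa overlapped no gene as counted, with Brd2 ending at 34122634, before its start. Its GENCODE M21 model is a longer one, of 3448 exon bases against the 1641 counted, and shares 360 of them with Brd2.

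Of the factors that Ciita works through, 7 genes of the RFX, NF-Y and CREB complexes were listed, and 0 of 7 were past 2-fold or called by the exact test in any peptide library. Rfx5, the DNA-binding RFX subunit, had 162, 163, 189 and 224 counts in Ctrl, TP5, sFD17 and FR17 and the largest log2 difference in sFD17, 0.57. Rfxank, a partner of RFX5, was at 0.36 in TP5 and 0.53 in FR17, from 104 counts in Ctrl. The sum of the 7 was 1.09-fold of control in both TP5 and sFD17 and 0.925-fold in FR17, and the sFD17 and FR17 sums changed side by library size alone, to 0.941-fold and 1.10-fold.

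Interferon-γ is the usual inducer of Ciita, through JAK kinases and the transcription factor Irf1. In sFD17 all 7 genes followed of that route were higher than control under TMM and DESeq2's size factors and 5 of 7 by library size alone, and 0 of 7 were called by the exact test. The median log2 difference was 0.31 under TMM and 0.09 by library size alone. Socs1, a feedback inhibitor, was at 0.84, Irf1 at 0.68 and Jak2, a kinase of the receptor, at 0.31. In FR17, 6 of 7 were lower under TMM and 4 of 7 by library size alone, Jak2 standing at -0.50 and Irf1 at -0.48. The exception was Ifng itself, with 15, 17, 23 and 56 counts in Ctrl, TP5, sFD17 and FR17 and a log2 difference of 1.35 in FR17, past 2-fold but not called by the exact test. In TP5, 4 of 7 were higher, Irf1 standing at -0.53.

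Of the 9 genes listed for antigen processing in endosomes, 8 were lower in sFD17 under TMM and by library size alone and 7 of 9 with DESeq2's size factors. By library size alone 31.9% of all genes were higher in sFD17 and 71.6% in FR17. Lgmn, an asparagine-specific endopeptidase, was down at -1.16 and was called by the exact test, with 6155 counts in Ctrl and 2159 in sFD17. Sppl2a, the membrane protease that removes the last piece of Cd74, was the exception and was also called, at 1.17, with 2395 and 4204 counts. Ctss, the cathepsin that trims Cd74, was at -0.67 in sFD17, -0.08 in TP5 and 0.14 in FR17. In TP5 7 of 9 were lower (6 by library size alone) and in FR17 6 of 9 were higher (5 with DESeq2's size factors, 9 by library size alone), with 0 called in either.

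Of the genes that remove class II molecules from the surface or bind Cd74, 0 of 4 were called. The ubiquitin ligase March1, which turns over surface class II, had log2 differences of -0.17 in TP5, 0.04 in sFD17 and -0.23 in FR17. March8, its relative, was at -0.34, -0.60 and -0.15. By library size alone March1 turned to -0.18 in sFD17, and March1 and March8 to 0.01 and 0.10 in FR17, so that 3 of 4 genes of the list were then higher in FR17 in place of 1. Cd44, the partner of Cd74 in signalling, held 40287 of the 42496 counts of the list in Ctrl. It was at -0.82 in FR17, and at 0.21 in sFD17, or -0.0040 by library size alone, where 0 of 4 were higher in sFD17 in place of 2 and the sum went from 1.145-fold to 0.986-fold of control. Mif, the ligand of Cd74, was within -0.27 and 0.07 in the 3 libraries. Of 5 costimulation genes, which give the second signal to T cells, 0 were called. Cd83, which protects class II from March1, was at 0.61 in TP5, -0.19 in sFD17 and 0.14 in FR17. In the same order Cd40 was at 0.62, 0.34 and 0.27, while Cd80 was at -0.34, 0.07 (-0.15 by library size alone) and -0.85. The median of the 5 in sFD17 turned with the scaling in the same way, from 0.07 to -0.15, and their sum in FR17 from 0.939-fold to 1.11-fold of control.

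The MHC class I genes, which show cytosolic peptides to CD8+ T cells, did not run with the class II genes in TP5 and sFD17. In FR17 this depended on the scaling. In sFD17 all 7 were higher than control under TMM and DESeq2's size factors, and 5 of 7 by library size alone, and 3 of 7 were called by the exact test. These were Nlrc5, the class I counterpart of Ciita, at 2.15 with 1017 counts in Ctrl and 3530 in sFD17, and the peptide transporter genes Tap1 at 1.17 and Tap2 at 0.99. H2-K1, a class I heavy chain, was at 0.08 in the same library, or -0.14 by library size alone. In TP5 all 7 were lower under each scaling, from -0.48 for H2-K1 to -0.10 for Tap2, with 0 called. In FR17 all 7 were lower under TMM and 6 of 7 were higher by library size alone, where 71.6% of all genes were. The sum turned from 0.880-fold to 1.04-fold.

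Markers of the usual class II cells ran in the direction of the class II genes in TP5 and FR17 for B cells and dendritic cells. This was not particular to them. In FR17 the sum of every marker list but the neutrophil one was above control. In TP5 the sums of monocyte and alveolar type 2 markers were above control too. The 12 B cell markers summed to 165 CPM in Ctrl, 259 in TP5, 189.7 in sFD17 and 227 in FR17. Each of the 12 was above control in the TP5 and FR17 libraries. Ms4a1, which encodes CD20, was called by the exact test in TP5, with 244 counts in Ctrl and 604 in TP5. The 12 dendritic cell markers summed to 255.5, 452, 268 and 354 CPM, with 11 of 12 higher in TP5 and in FR17. Flt3, the dendritic cell growth factor receptor, was at 1.28 in TP5 and Itgae, the CD103 integrin chain, at 1.30, both called by the exact test. In sFD17, 11 of 12 B cell markers and 8 of 12 dendritic cell markers were higher under TMM, and 8 and 6 by library size alone, while the class II sum was 0.731-fold of control. The 1 dendritic cell marker called in sFD17 was lower, Siglech of plasmacytoid dendritic cells at -1.22, with 167 counts in Ctrl and 55 in sFD17. By library size alone the B cell and dendritic cell sums in sFD17 turned from above control to 0.991-fold and 0.903-fold.

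The 14 macrophage markers summed to 3546 CPM in Ctrl, 2283 in TP5, 1207 in sFD17 and 4209 in FR17. In sFD17 14 of 14 were lower under each scaling and 9 of 14 were called by the exact test, with Ear1 at -3.71, Krt79 at -3.63 and Car4 at -2.46. In TP5 13 of 14 were lower and 2 were called, Ear1 at -1.06 and Marco at -1.04, while the class II sum was 1.27-fold of control. In FR17 13 of 14 were higher and 0 were called. The ratio of class II counts to macrophage marker counts was 3.35 in Ctrl, 6.63 in TP5, 7.20 in sFD17 and 3.35 in FR17. To dendritic cell markers it was 46.5, 33.5, 32.4 and 39.8, and to B cell markers 72.1, 58.4, 45.8 and 62.2. Every marker list had a pair of libraries whose counting intervals for this ratio did not overlap. The part of these cell types in the class II values was not tested.

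The sum of the 10 neutrophil markers was 0.941-fold of control in TP5, 1.28-fold in sFD17 and 0.769-fold in FR17, with Csf3r, the G-CSF receptor, at -1.04 in FR17. By number, 6 of 10 were higher in TP5, with a median of 0.04, and 9 of 10 in sFD17. In FR17 9 of 10 were lower under TMM and 5 of 10 by library size alone, which gave a sum of 0.912-fold. The monocyte list was near control in sum, at 1.07-fold, 1.11-fold (0.953 by library size alone) and 1.07-fold, and its members went both ways, with 2 of 8 called in TP5 and 4 of 8 in sFD17. F13a1, a transglutaminase subunit, was at -1.35 in TP5 and -1.91 in sFD17, while Ms4a4c was at 1.22 and 1.25 and Ly6c2 and Treml4 were at 1.42 and 1.12 in sFD17. Alveolar type 2 cells, which also carry class II molecules, gave marker sums of 1.28-fold, 1.34-fold and 1.13-fold, with Napsa and Abca3 holding 1869 and 732 of the 3712 counts in Ctrl. The members went both ways, with 3 of 7 lower in TP5 and in sFD17, among them Sftpc, surfactant protein C, at -0.75 and -0.67. The 1 member called by the exact test was higher, Sftpb, surfactant protein B, at 1.00 in sFD17 with 205 counts in Ctrl and 322 in sFD17. In TP5 2 of 7 were past 2-fold down, Slc34a2 with 60 counts in Ctrl and 29 in TP5 and Lamp3 with 18 and 6. T cell markers summed to 0.764-fold, 0.566-fold and 1.68-fold, with Cd4 holding 398 of the 683 counts in Ctrl, and without Cd4, a sum added after seeing the data, to 1.18-fold, 0.939-fold and 2.06-fold. Cd4 was called by the exact test in TP5 and sFD17, with 192 and 93 counts. NK cell markers summed to 0.581-fold, 0.818-fold and 3.19-fold. Endothelial markers summed to 0.713-fold, 0.998-fold and 1.30-fold, and without Pecam1, which held 830 of the 1988 counts in Ctrl, to 0.464-fold, 0.962-fold and 1.35-fold, likewise added after seeing the data. In TP5 5 of 6 endothelial markers were lower and 3 were called by the exact test, Cdh5 at -1.29, Tie1 at -1.22 and Cldn5 at -1.15. In FR17 3 of 5 NK cell markers and 2 of 6 T cell markers were called by the exact test, Prf1 at 2.03 and Cd3e at 1.80 among them, in the library with the most Ifng counts.

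**Figure D4:**
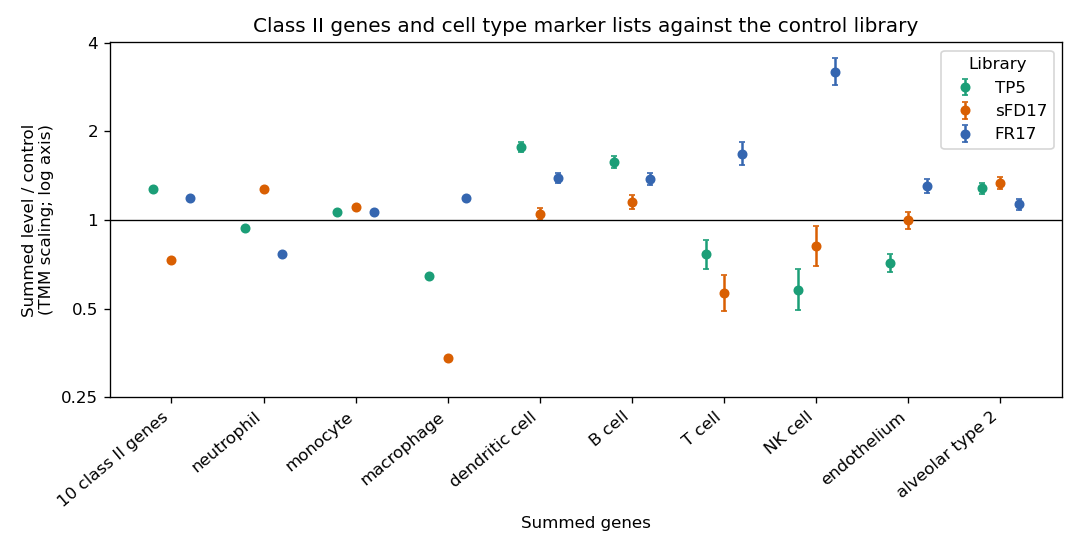
Summed level of the class II genes and of each cell type's marker list in the peptide libraries relative to control, TMM scaling, on a log axis; bars are 95% intervals for counting error. The class II sum stood at 1.27 in TP5, 1.19 in FR17 and 0.731 in sFD17, and in the order TP5, sFD17 and FR17 the macrophage markers at 0.644, 0.340 and 1.19 and the dendritic cell markers at 1.77, 1.05 and 1.39.

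Genes with a pattern like that of H2-Ab1 were ranked by the distance between their 4 centred log2 levels and those of H2-Ab1, over 8108 genes with at least 100 counts in every library. The nearest outside the class II genes were Pebp1, Nqo2, Snhg5, Usp1, Smc4, Mgl2, Mcub, Ptgr2, Snrnp40 and Ppfibp2, at distances of 0.027 to 0.086. Mgl2, a lectin receptor, was the most abundant of them, with 4257 counts in Ctrl, 6251 in TP5, 2548 in sFD17 and 6871 in FR17. Among all of these genes, H2-DMb1 was 3rd nearest to H2-Ab1, Cd74 6th, H2-Eb1 10th, H2-DMa 17th and H2-Aa 23rd. Ciita was 1130th, H2-Ob 1432nd, H2-DMb2 2105th and H2-Oa 2466th. With 4 points a gene, this order is a description of these libraries.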

How the data were processed

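RNA from sorted CD11b+Ly6g+ cells was sequenced in 4 libraries, 1 per group, each pooled from 10 to 12 mice. Per the labels, the submitters' processing notes name HISAT2 2.0.5, StringTie 1.3.3b, featureCounts 1.5.0-p3, edgeR 3.18.1 and build GRCm38.p6. The deposited values were whole-number counts per gene, not normalized. The authors' methods name a directional library kit, and strand use in counting was not stated. All sample columns of the table were matched to a library by name. 11 gene symbols that had turned into dates were restored by gene ID.

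A gene was tested where 1 library or more held 10 counts of it, which left 16369. TMM factors, log2 CPM (prior count of 2) and the exact test came from edgeR 4.0.16 (R 4.3.3), with the trended dispersion of the 4 libraries taken as 1 group, giving biological coefficients of variation of 0.212 to 0.449. The spread so measured includes any difference between groups, and p-values were unadjusted, at 0.05. DESeq2 1.42.0 was an alternative. Intervals were 95%, exact binomial for ratios of counts, Wilson for shares and levels, and from the normal approximation on the log scale for ratios of ratios. They cover counting error only, since each group had 1 library. Reads carried no molecular identifiers, so copies of 1 molecule could be counted as separate reads. The steps were tested on simulated data before use. The genes followed and all gene lists were chosen with earlier results of these data known. All 10 class II genes were named, and in each other list those named came from the 3 with the largest difference per peptide at 50 counts or more, with members of interest for their role added after values were seen. Promoter sequences were from RefSeq, GRCm38.p6. 1 gene was left out of a list and its counts and is not reported here.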

Additional observations from a re-analysis of the deposited data

How the results depend on the processing

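With 1 library per group no replicate could be left out, and every value describes these libraries alone. No paired analysis was possible because each group had 1 library. At a threshold of 1.5-fold in place of 2-fold, 1 gene passed in TP5 (H2-DMb2), 1 in sFD17 (H2-Aa) and 0 in FR17, beside 20.8%, 29.0% and 22.7% of all genes. With a fixed biological coefficient of variation of 0.2 the exact test called 1 in TP5, beside 5.4% of all genes. The other settings of the exact test and of the 2-fold rule against control gave 0. By library size alone, 6 genes passed 2-fold in FR17 against sFD17 and 6 in sFD17 against TP5, beside 30.5% and 14.4% of all genes. The median log2 difference from control moved beyond its counting interval by library size alone, to 0.41 in TP5, to 0.47 in FR17 and to -0.63 in sFD17, and there to -0.38 with DESeq2's size factors and to -0.45 with no filter on low counts. These settings act through the scaling factors, and the direction of the median was kept. Of the 30 differences of single genes from control, 2 changed sign with DESeq2's size factors (Ciita and H2-Oa in sFD17), 1 by library size alone (H2-Ob in sFD17) and 0 with a prior count of 0.5. Searching AAC before TGATTGG in place of the X1 core before ATTGG, chosen after seeing the windows, gave 6 genes in place of 2. Depth limited H2-Oa most, at 131 to 243 counts.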
